A study of Homo sapiens with 78 samples.

Results

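A549 cells, an established line of lung carcinoma epithelial cells, were treated for 1 h with IL-1β plus budesonide and compared with cells treated for 1 h with budesonide alone. The comparison describes the immediate mRNA response to IL-1β when budesonide is present. Each side had 4 libraries, out of 78 libraries in the series, and every gene with at least 1 TPM in at least 3 of the 78 libraries was described, which kept 13327 of 19652 listed genes. TPM, the unit of transcript abundance, is a level that takes transcript length into account. The cotreated cells received IL1B at 1 ng/ml and budesonide (Bud) at 300 nM, and their comparison cells received budesonide at 300 nM. In 2 further groups of 4 libraries, cells received IL1B alone for 1 h or were not stimulated (NS) for 1 h. All groups were wild-type A549 cells, grown to confluence and held overnight without serum before treatment. They represent 1 carcinoma line and not primary airway epithelium.

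IL-1β is a cytokine of early inflammation. Its receptor, built from IL1R1 and IL1RAP, signals through MYD88 and IRAK kinases to the IKK complex, which releases NF-κB from its IκB inhibitors, and to MAP kinases, which act on AP-1 and on factors of the serum response element. The first genes to respond are immediate early genes, which need no new protein synthesis, and many of them encode chemokines or inhibitors of the same pathways. Budesonide is an inhaled glucocorticoid. It binds the glucocorticoid receptor (GR), which raises some genes, among them anti-inflammatory genes, and lowers the expression of many inflammatory genes.

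The 8 libraries carried high levels of the keratin genes KRT7, KRT8 and KRT18, averaging 3103, 3405 and 2337 TPM. The lowest epithelial markers, MUC1, CLDN4 and CLDN7, averaged 7.80, 2.84 and 0.775 TPM. Of 10 immune cell markers, 3 passed the filter. The pan-leukocyte gene PTPRC reached at most 0.482 TPM, and CD3D, CD3E, MS4A1 and the endothelial gene KDR were listed at 0. The highest immune cell markers, CD68, CD14 and ITGAM, averaged 8.76, 3.41 and 1.42 TPM. The highest fibroblast marker, COL1A1, averaged 7.87 TPM. Of 6 fibroblast and 6 endothelial markers 4 and 1 passed the filter. None of the immune, fibroblast and endothelial markers was called between the groups by limma, and 0 had an unadjusted p under 0.05. Summed TPM was 828443 to 902859 in cotreated libraries and 826539 to 876550 in budesonide libraries. Cotreated library 4 stood apart. Its root mean square distance from the other libraries of its group was 0.489 log2 units, against 0.242 to 0.292 in the other 7 libraries. It was the lowest of the 4 cotreated libraries for 58 of the 114 genes called up, so calls at 1 h that ended without it are given. TPM keeps no record of sequencing depth, and the depth of each single library is unknown here.

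With IL-1β added to budesonide, 114 genes rose and 3 fell within 1 h. These were 0.855% and 0.0225% of the genes tested, with an adjusted p of at most 0.05 in the limma fit and a change of at least 2-fold as the rule for a call. All changes are differences of log2(TPM + 0.5), which understates the change of genes with low levels. The median change was 1.89 over the 114 genes and −0.04 over all tested genes. Of the 114 genes, 51 reached a log2 change of at least 2, 21 at least 3 and 5 at least 6. A further 116 genes were higher and 25 lower at an adjusted p of at most 0.05 but with less than a 2-fold change. With no limit on size, 230 genes (1.73%) were higher and 28 (0.21%) lower at that adjusted p. The 4 cotreated libraries lay wholly above the 4 budesonide libraries for 111 of the 114 genes, and the groups did not overlap, in either direction, for 688 of all tested genes (5.16%).

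Many of these genes were nearly silent in budesonide cells. The mean TPM there had a median of 4.55 over the 114 genes and 12.5 over all tested genes. For 27 of the 114 genes every budesonide library was below 1 TPM, and for 16 of these every cotreated library was at 1 TPM or more. Together the 114 genes made up 1.18%, 1.08%, 1.19% and 0.946% of the summed TPM of the cotreated libraries, against 0.203%, 0.203%, 0.203% and 0.200% in the budesonide libraries. At the other end, 26 of the 114 genes reached a mean of 100 TPM or more in cotreated cells. Levels are shares of the RNA in a whole culture, so a change in the number of expressing cells and a change in the RNA per cell cannot be told apart.

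**Figure D1:**
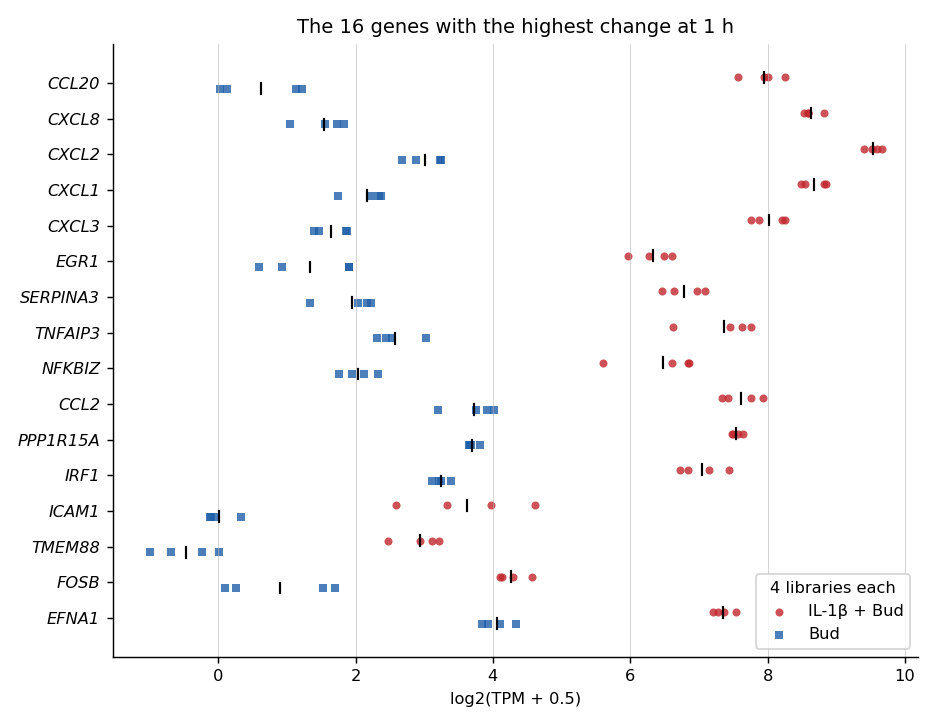
Levels of the 16 genes with the highest change at 1 h, as log2(TPM + 0.5) on the horizontal axis, in the 4 cotreated libraries (circles) and the 4 budesonide libraries (squares), with the group mean as a black line. In all 16 genes every cotreated library lies to the right of every budesonide library, and ICAM1 has the widest spread among cotreated libraries, from 5.53 to 23.9 TPM.

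Chemokines that attract neutrophils were among the genes with the largest changes. Of 6 such CXC chemokine genes tested, 5 rose, and their list median of 6.44 was the highest of the lists. CXCL8, which encodes interleukin-8, stood at 385, 369, 453 and 383 TPM in cotreated libraries, against 2.83, 1.56, 3.07 and 2.45 TPM in budesonide libraries. All cotreated values were thus far above all budesonide values, the ratio of the means was 161, and the log2 change was 7.09 ± 0.22 (SE, 4 libraries each, limma adjusted p = 9.06e-37). This SE and p, like those below unless stated, take the spread from all 78 libraries. Over the alternatives tried, the limma adjusted p of CXCL8 was at most 3.29e-06. CXCL2 stood at 675, 730.5, 810.2 and 769 TPM in cotreated libraries, against 5.92, 6.86, 8.94 and 8.90 TPM in budesonide libraries. CXCL1 stood at 453, 371, 459 and 357 TPM in cotreated libraries, against 4.68, 4.19, 4.56 and 2.85 TPM in budesonide libraries. CXCL3 stood at 297, 235, 303 and 217 TPM in cotreated libraries, against 3.13, 2.26, 3.19 and 2.12 TPM in budesonide libraries. Neither CXCL2, CXCL1 nor CXCL3 had overlapping groups, and their changes were 6.53 ± 0.17, 6.50 ± 0.17 and 6.38 ± 0.17. CXCL5 was different in its level without IL-1β, with 65.2 ± 4.22 TPM in budesonide cells (SD), and rose by 1.45 ± 0.16. CXCL6 did not pass the test, with 0.61 and an adjusted p of 0.299. With a pseudocount of 0.1 TPM all 6 genes of this list were called up.

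Chemokines for monocytes and lymphocytes were divided. Of 8 tested, 3 rose, and the list median was 0.33. CCL20, which attracts CCR6-bearing lymphocytes and dendritic cells, had the highest change of all tested genes, 7.32 ± 0.33 (adjusted p = 3.86e-28). It stood at 245, 190.2, 256 and 305 TPM in cotreated libraries, against 0.522, 0.593, 1.82 and 1.70 TPM in budesonide libraries. Budesonide libraries 3 and 4 were higher than libraries 1 and 2, and all 4 were far below the cotreated ones. CCL2, the monocyte chemokine, stood at 243, 172, 161 and 217 TPM in cotreated libraries, against 13.0, 14.5, 8.71 and 15.7 TPM in budesonide libraries, a change of 3.89 ± 0.16. CX3CL1 rose by 1.04 but lost its call without cotreated library 1 (0.93) and without cotreated library 3 (0.93). It also lost it with quantile normalization (0.97), a pseudocount of 1 TPM (0.68), only the 8 libraries in the fit (adjusted p = 0.054) and the replicate number as a block in those (0.0596). The interferon-linked chemokines CXCL10 (0.28) and CXCL11 (0.07) and the T cell chemokine CCL5 (0.37) were not called.

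Several of these genes lie next to each other. On GRCh38 chromosome 4, CXCL8 (chr4:73740569-73743716), CXCL1 (chr4:73869393-73871308), CXCL5 (chr4:73995642-73998677), CXCL3 (chr4:74036589-74038689) and CXCL2 (chr4:74097040-74099195) form part of the CXC cluster. CXCL6 (chr4:73836678-73838760) and PPBP (chr4:73986439-73988190), which lie between them, were not called. CXCL1, CXCL2 and CXCL3 also resemble each other in sequence. In CXCL2, 21.7% of the transcript stretches of 31 bases also occurred in another gene, most of them in CXCL1, and the share was 15.0% in CXCL1 and 9.57% in CXCL3, so the split of reads among the 3 genes is less certain than their sum.

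The promoters of the highest genes were read from RefSeq (GRCh38.p14), from 250 bases before to 50 bases after each start. The NF-κB consensus, searched on both strands by its usual degenerate form, was present in 7 of the 14 promoters that could be matched among the 16 highest genes. Over all 87 matched promoters of the 114 genes it was present in 31.03%, and in 13.11% of the 10576 promoters of tested genes. The stretches of these 7 genes are shown since they carried both a match and some of the highest changes. Each is 60 bases of the gene's own strand, 5′ to 3′, upstream of the transcript start that the RefSeq promoter was read from, with the match nearest that start in capitals. In CXCL1, CXCL2, CXCL3 and IRF1 a second match, on the other strand, lay 1, 1, 1 and 0 bases away and overlapped it, and in TNFAIP3 a second one began 12 bases upstream and is in lower case. In RefSeq the TNFAIP3 gene begins at chr6:137866349, so its stretch lies inside the gene's full span. Of 93 promoters of named genes compared with annotated transcripts, 76 had the sequence after their start in the transcript.
CCL20 (chr2:227813738-227813797, plus strand): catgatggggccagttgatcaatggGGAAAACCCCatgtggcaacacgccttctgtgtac
CXCL2 (chr4:74099238-74099297, minus strand): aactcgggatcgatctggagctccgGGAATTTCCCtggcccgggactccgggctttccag
CXCL1 (chr4:73869290-73869349, plus strand): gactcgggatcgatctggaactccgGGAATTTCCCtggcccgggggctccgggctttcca
CXCL3 (chr4:74038733-74038792, minus strand): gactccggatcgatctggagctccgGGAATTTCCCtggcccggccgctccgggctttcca
TNFAIP3 (chr6:137867179-137867238, plus strand): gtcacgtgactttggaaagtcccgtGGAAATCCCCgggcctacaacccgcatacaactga
NFKBIZ (chr3:101827742-101827801, plus strand): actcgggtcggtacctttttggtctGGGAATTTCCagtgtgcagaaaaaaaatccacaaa
IRF1 (chr5:132490789-132490848, minus strand): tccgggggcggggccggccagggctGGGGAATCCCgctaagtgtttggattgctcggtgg

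The 3 CXCL stretches were close copies of each other. CXCL1 and CXCL3 had the same base at 56 of 60 positions and CXCL1 and CXCL2 at 48, whereas CXCL1 and CCL20 had 20 and CXCL1 and TNFAIP3 had 24. The match ended 68 to 70 bases before the start in CXCL1, CXCL2, CXCL3 and CCL20. It ended 46 bases before the start in TNFAIP3, 41 in IRF1 and 214 in NFKBIZ. CXCL8, EGR1, SERPINA3, PPP1R15A, ICAM1, FOSB and EFNA1 had no match, which says only that these letters were not in this window. The letters TATAAA of the TATA box, searched on the gene strand at any place in the window, were present in 26.44% of the promoters of the genes that rose, and in 4.0% of all. The other motifs were searched on both strands, with shares given for the genes that rose and then for all tested genes. These were the AP-1 site TGANTCA (5.747% and 4.699%), the CRE TGACGTCA (8.046% and 3.149%), the CArG box of serum response factor (2.299% and 1.05%) and the GR site AGAACA (12.64% and 8.793%). These shares describe letters near a start and are not evidence of binding.

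Several genes that encode inhibitors of NF-κB also rose. In the list of IκB and A20 feedback genes 6 of 13 rose, with a list median of 0.42. TNFAIP3 encodes A20, a ubiquitin-editing enzyme that limits IKK signaling. It stood at 196, 174, 215 and 97.8 TPM in cotreated libraries, against 4.95, 7.65, 5.29 and 4.48 TPM in budesonide libraries. Cotreated library 4 was the lowest, with no overlap, and the change was 4.78 ± 0.23 (adjusted p = 2.35e-26). NFKBIZ, a nuclear IκB protein that helps to activate some NF-κB targets, stood at 115, 96.9, 114 and 48.0 TPM in cotreated libraries, against 3.37, 3.85, 2.88 and 4.50 TPM in budesonide libraries, a change of 4.44 ± 0.24. NFKBIA encodes IκBα, the inhibitor that holds NF-κB in the cytoplasm, and had the largest rise in mean TPM of the called genes. It stood at 885, 907, 1012 and 829 TPM in cotreated libraries, against 146, 171, 211 and 149.6 TPM in budesonide libraries. All cotreated values lay above all budesonide values, and the change was 2.43 ± 0.11, beside a budesonide level far above that of TNFAIP3. NFKBID (2.89), NFKBIE (2.75) and BCL3 (1.88), all IκB family members, rose as well, whereas TNIP1, CYLD and OTULIN were not called (0.19, 0.15 and −0.05).

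Few genes for NF-κB subunits or for the signaling above these inhibitors were called at 1 h. The list median of the subunits was 0.63, and 4 of them rose at 2 h. Of 5 NF-κB subunit genes, NFKB2 alone rose (1.89 ± 0.15), and stood at 85.5, 56.2, 51.9 and 59.9 TPM in cotreated libraries, against 17.2, 17.0, 11.0 and 22.7 TPM in budesonide libraries. RELB changed by 0.76, under 2-fold, and REL (0.63), RELA (0.04) and NFKB1 (−0.03) were not called. Of 18 genes of IL-1 receptor and IKK signaling, 2 rose, with a list median of −0.07. These were TIFA, a TRAF-interacting adaptor (1.44 ± 0.12), and MAP3K8, a kinase upstream of ERK (1.21 ± 0.11). The receptor genes IL1R1 (−0.04) and IL1RAP (−0.28) and the adaptor MYD88 (−0.12) were not called. None of 17 TRAF and TNF receptor genes was called by limma. At an unadjusted p under 0.05, 5 were higher, a count with no share of all tested genes beside it. The highest of the 17 was TNFRSF9 at 0.86, and the number called up was 1 without cotreated library 4 or with a pseudocount of 0.1 TPM.

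Genes for AP-1 and related factors were the next group. Of 12 AP-1 and ATF genes 7 rose, with a list median of 2.05. FOSB stood at 23.2, 17.0, 19.1 and 16.6 TPM in cotreated libraries, against 2.74, 0.700, 0.570 and 2.39 TPM in budesonide libraries. Budesonide libraries 1 and 4 were the higher ones, no library overlapped, and the change was 3.37 ± 0.23. JUN, the partner of FOS proteins, stood at 52.7, 52.8, 58.6 and 53.8 TPM in cotreated libraries, against 4.46, 4.97, 4.75 and 8.32 TPM in budesonide libraries, a change of 3.21 ± 0.16. FOS itself rose by 2.13 ± 0.45 (adjusted p = 0.00109), with a standard error well above that of JUN. ATF3 (2.66), FOSL1 (2.16), MAFF (2.09) and JUNB (2.02) completed the group. FOSL2 (0.53) and JUND (0.49) were not called.

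Of 17 EGR, NR4A and IER genes, 8 rose. EGR1, a zinc finger factor of the serum response, stood at 62.2, 97.1, 77.1 and 89.7 TPM in cotreated libraries, against 3.23, 1.40, 1.01 and 3.23 TPM in budesonide libraries. Budesonide libraries 1 and 4 were again the higher ones, and the change was 5.01 ± 0.19 (adjusted p = 1.51e-31). IER3, which encodes a regulator of cell survival, stood at 225, 264, 226 and 283 TPM in cotreated libraries, against 26.7, 30.6, 26.9 and 31.9 TPM in budesonide libraries, a change of 3.08 ± 0.11. IER2 changed by 2.84 ± 0.14, and the orphan nuclear receptor genes NR4A1 and NR4A2 by 2.43 and 1.69. EGR2 and EGR3, at means of 0.992 ± 0.240 and 1.01 ± 0.309 TPM in cotreated cells (SD), changed by 1.42 and 1.42, and both fell below the 2-fold threshold with a pseudocount of 1 TPM (0.91 each). MYC (0.27), SRF (0.14) and the YAP targets CCN1 (0.00) and CCN2 (−0.16) were not called. Of 14 Krüppel-like and C/EBP genes, KLF10 (2.46) and CEBPD (1.28) rose. KLF4 (0.92) and KLF6 (0.89) were just under 2-fold, and without cotreated library 4 the count was 4.

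Genes for feedback on MAP kinases and on mRNA stability rose in the same hour. Of 15 MAP kinase phosphatase and feedback genes, 4 rose and 1 fell. The 4 were DUSP8 (1.80), DUSP5 (1.68), DUSP10 (1.53) and DUSP1 (1.38), which encode dual-specificity phosphatases. DUSP1, which inactivates p38 and JNK, stood at 292, 430.2, 388 and 449.8 TPM in cotreated libraries, against 141, 133, 154 and 164 TPM in budesonide libraries, with no overlap. DUSP4, DUSP6 and DUSP16 were not called (0.03, 0.34 and 0.05). Of 7 genes for mRNA-destabilizing proteins, 3 rose. ZFP36, which encodes tristetraprolin, stood at 186, 242, 248 and 266 TPM in cotreated libraries, against 46.9, 49.3, 58.5 and 77.1 TPM in budesonide libraries, a change of 2.03 ± 0.22. ZC3H12A, which encodes the RNase Regnase-1, changed by 2.16 ± 0.18, and ZFP36L1 by 1.80 ± 0.12. Of 14 stress and growth arrest genes 3 rose, PPP1R15A, TRIB1 (1.81) and GDF15 (1.42). PPP1R15A, whose product reverses the phosphorylation of eIF2α, stood at 179, 178, 199 and 188 TPM in cotreated libraries, against 13.6, 12.2, 12.0 and 12.3 TPM in budesonide libraries. Its change of 3.84 ± 0.08 had the lowest adjusted p of the 16 highest genes (8.39e-47). Of 14 SOCS and signaling feedback genes 2 rose and 1 fell. The cytokine signaling inhibitor SOCS3 rose by 2.50 ± 0.14 and the Notch effector HES1 by 1.21 ± 0.19, whereas SOCS1 was at −0.57, under 2-fold.

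Of 20 cytokine and growth factor genes, 10 rose, with a list median of 1.03. CSF2, which encodes GM-CSF, stood at 5.93, 3.44, 3.12 and 5.71 TPM in cotreated libraries, against 0.0640, 0, 0 and 0 TPM in budesonide libraries. TNF stood at 3.70, 4.21, 2.78 and 4.03 TPM in cotreated libraries, against 0, 0, 0 and 0.0350 TPM in budesonide libraries. Both were therefore found in at most 1 of 4 budesonide libraries and in all cotreated libraries, with changes of 3.24 ± 0.20 and 3.03 ± 0.12. IL6, a pleiotropic inflammatory cytokine, stood at 1.27, 2.89, 2.46 and 1.62 TPM in cotreated libraries and was listed at 0 in all 4 budesonide libraries. CCL4, SELE and CD69 were the other genes that rose and were listed at 0 in every budesonide library, with means of 1.47 ± 0.357, 0.790 ± 0.264 and 0.629 ± 0.258 TPM in cotreated cells (SD, n = 4). These 3 genes were singled out after their values were seen. In CCL4, a macrophage chemokine, 37.8% of stretches of 31 bases occurred in another gene, mainly CCL4L2. IL1A (2.31), IL32 (1.83), the EGFR ligands EREG (1.45) and AREG (1.10), IL1B (1.33), CSF3 (1.32) and CSF1 (1.23) also rose. Of these, IL1B (0.83) and CSF3 (0.89) lost their call with a pseudocount of 1 TPM, as did SELE (0.83) and CD69 (0.69), and CSF1 lost it without cotreated library 1 (adjusted p = 0.0703), cotreated library 3 (0.056) or budesonide library 4 (0.104) and with only the 8 libraries in the fit (0.179).

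Of 14 acute phase and prostanoid genes, 8 rose. SERPINA3, which encodes the protease inhibitor α1-antichymotrypsin, stood at 135, 98.7, 125 and 87.5 TPM in cotreated libraries, against 2.03, 3.61, 3.99 and 4.20 TPM in budesonide libraries. The groups were far apart, with a change of 4.84 ± 0.22 (adjusted p = 5.22e-28), although 32.5% of its 31-base stretches also occurred in another annotated gene. PTGS2, which encodes cyclooxygenase-2, stood at 206, 191, 256 and 102 TPM in cotreated libraries, against 21.5, 17.2, 27.5 and 22.6 TPM in budesonide libraries. Cotreated library 4 was the lowest by a wide margin, and the change was 3.00 ± 0.31. SOD2, the mitochondrial superoxide dismutase, rose by 1.70 ± 0.21, a call that ended with the replicate number as a block in the 8 libraries alone (adjusted p = 0.0532). CLEC4E (2.75), PI3 (2.50), SAA1 (1.68), SAA2 (1.48) and CFB (1.32) rose and had means of 0.14 to 3.73 TPM in budesonide cells. In CFB 85.3% and in SOD2 18.6% of the 31-base stretches also occurred in another annotated gene, so the level of CFB is uncertain. SAA1 and SAA2 shared 40.3% and 24.3% of their 31-base stretches with each other and other genes, and SAA2 lost its call in the 8 libraries alone, under the same block (adjusted p = 0.201) and without it (0.376). C3 (0.43) and LCN2 (−0.13) were not called.

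Of 14 adhesion and protease genes, 3 rose. ICAM1, the ligand of leukocyte integrins, stood at 23.9, 9.61, 15.2 and 5.53 TPM in cotreated libraries, against 0.419, 0.760, 0.433 and 0.463 TPM in budesonide libraries. The cotreated values spread over more than 4-fold, with library 1 highest and library 4 lowest, and the change was 3.61 ± 0.26 (adjusted p = 6.6e-18). The urokinase gene PLAU rose by 2.01 ± 0.28. ICAM4, which starts 339 bases after ICAM1, rose by 1.21 but lost its call without cotreated library 1 (0.97), with a pseudocount of 1 TPM (0.79) and with the 8 libraries alone, without the replicate block (adjusted p = 0.0611) and with it (0.118). TMEM88, a WNT pathway inhibitor, similarly starts 269 bases after KDM6B, and both rose (3.41 and 2.35). TMEM88 stood at 8.79, 5.06, 8.17 and 7.15 TPM in cotreated libraries, against 0.353, 0.123, 0 and 0.506 TPM in budesonide libraries. Reads that run past the end of one gene into the next were not told apart. Of the 114 genes, 13 lay within 100 kb of another of them.

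Genes of cell survival were moved in part. BIRC3, which encodes the inhibitor of apoptosis cIAP2, lies at chr11:102317484-102339403, and BIRC2, which encodes cIAP1, lies beside it at chr11:102347214-102378670. BIRC3 stood at 127, 78.1, 70.7 and 56.9 TPM in cotreated libraries, against 28.4, 19.7, 17.9 and 17.9 TPM in budesonide libraries. Library 1 was the highest on both sides, the groups did not overlap, and the change was 1.92 ± 0.17 (adjusted p = 1.73e-14). BIRC2 stood at 40.1, 35.6, 31.1 and 34.3 TPM in cotreated libraries, against 27.2, 23.2, 23.0 and 26.8 TPM in budesonide libraries, with no overlap but a change of only 0.48 ± 0.13 (adjusted p = 0.0244), under 2-fold. XIAP (0.08), BIRC6 (−0.05) and BIRC5 (−0.11) were not called. In the BCL2 family 3 of 13 genes rose. These were the antiapoptotic BCL2A1 (2.42 ± 0.20) and the proapoptotic BBC3 (1.38 ± 0.11) and PMAIP1 (1.02 ± 0.15), and the last was under 2-fold without cotreated library 1 (0.97), cotreated library 3 (0.92) or budesonide library 2 (0.92). MCL1 was at 0.49, under 2-fold, and BCL2L1 at 0.04.

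Other groups showed few or no calls at 1 h. Of 29 interferon-stimulated genes, IRF1 alone rose. IRF1, an NF-κB-responsive transcription factor, stood at 172, 115, 141 and 105 TPM in cotreated libraries, against 8.99, 10.0, 8.78 and 8.19 TPM in budesonide libraries, a change of 3.79 ± 0.13. The list median was −0.05, and IFIT1 (−0.23) and OAS1 (−0.09) were not called. None of 27 GR target genes was called by limma, with a list median of −0.06. At an unadjusted p under 0.05, 5 were higher and 1 lower, counts with no share of all tested genes beside them. With a pseudocount of 0.1 TPM 1 GR target gene was called up. TSC22D3, the gene of the leucine zipper protein GILZ, stood at 58.8, 51.7, 50.1 and 49.8 TPM in cotreated libraries, against 82.9, 77.7, 82.9 and 70.1 TPM in budesonide libraries. The groups did not overlap, but the change of −0.57 ± 0.12 (adjusted p = 0.00184) was under 2-fold. PER1 (0.63) and the sodium channel gene SCNN1G (0.76) were higher with adjusted p of 0.0145 and 3.52e-08, also under 2-fold, and FKBP5 was at −0.06. Of the 27 genes, 5 were called up by budesonide alone at 1 h, where 0.18% of all tested genes were. No cell cycle gene of 20, reference gene of 12 or mitochondrially encoded gene of 13 was called by limma, and at an unadjusted p under 0.05 these lists held 0, 1 and 0 genes. Among 12 epithelial markers the transcription factor ELF3 rose (1.33 ± 0.10), at 439, 414, 444 and 407 TPM in cotreated libraries, against 165, 176, 175 and 161 TPM in budesonide libraries.

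**Figure D2:**
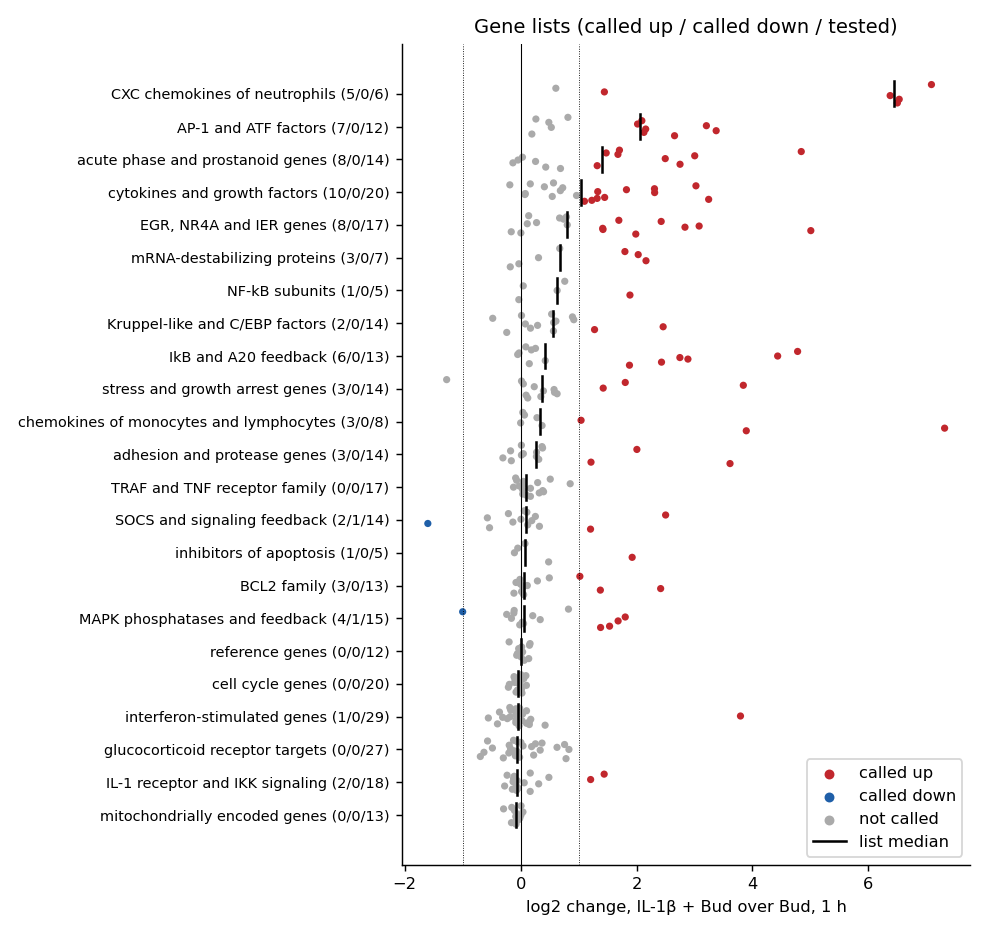
Log2 change of every tested member of 23 gene lists on the horizontal axis, for IL-1β plus budesonide over budesonide at 1 h, with called genes in red (up) and blue (down), other members in grey and the list median as a black line. The CXC chemokines stand furthest to the right, with a median of 6.44, and the cell cycle, reference, GR target and mitochondrial lists are centred near 0 with no called member.

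The genes that fell were RGS2, CITED2 and SPRY1. RGS2, a GTPase-activating protein that shortens Gq signaling, stood at 9.88, 12.1, 15.1 and 13.6 TPM in cotreated libraries, against 37.1, 31.8, 49.8 and 39.7 TPM in budesonide libraries. All cotreated values were below all budesonide values, with a change of −1.60 ± 0.19 (adjusted p = 2.04e-09). CITED2, a CBP/p300-binding transcriptional regulator, stood at 8.56, 11.4, 14.3 and 10.9 TPM in cotreated libraries, against 26.4, 26.9, 30.7 and 22.6 TPM in budesonide libraries. It did not overlap either, with a change of −1.21 ± 0.15 (adjusted p = 4.69e-09). SPRY1, an inhibitor of receptor tyrosine kinase signaling, stood at 1.29, 2.06, 2.50 and 2.18 TPM in cotreated libraries, against 4.02, 4.15, 5.46 and 4.21 TPM in budesonide libraries. Its change of −1.0004 (SE 0.16) lay at the threshold and was under 2-fold without cotreated library 1 (−0.85), without budesonide library 3 (−0.91), with a pseudocount of 1 TPM (−0.87), with median-of-ratios scaling (−0.97) and with quantile normalization (−0.96). In budesonide cells all 3 genes were above NS cells, at means of 39.6 ± 7.53 in budesonide and 7.79 ± 0.800 TPM in NS cells for RGS2, 26.6 ± 3.30 and 8.58 ± 0.986 TPM for CITED2, and 4.46 ± 0.670 and 1.32 ± 0.293 TPM for SPRY1 (SD, n = 4 each). The same 4 budesonide libraries stand in both of these contrasts.

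The genes that rose were mostly short in the annotation. Their median length was 7.51 kb, against 30.4 kb over 13089 tested genes with a position, and their median number of exons was 4, against 9. Genes called up at 24 h but not at 1 h had a median length of 31.9 kb. The AU-rich element UUAUUUAUU, which marks short-lived mRNAs, was present in the 3′ UTR of 29 of 113 genes that rose (25.7%), against 1176 of 12910 tested genes (9.11%). The genes with the element included CXCL1, CXCL2, CXCL3, CXCL8, TNF, CSF2, PTGS2, FOS, TNFAIP3, ZFP36 and BIRC3. Of the genes up at 24 h and not at 1 h, 7.95% carried it. These are descriptions of the annotated transcripts and carry no test.

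The change with IL-1β was then set against the change without budesonide, between 4 IL-1β and 4 NS libraries at 1 h, which share no library with the comparison above. Without budesonide, 136 genes rose (1.02%) and 1 fell (0.0075%). Of the 114 genes, 104 also rose there. Over the 146 genes that rose in either comparison, the change with budesonide was lower than the change without it for 72.6%, beside 50.4% of all tested genes, with a median difference of −0.29. The Pearson correlation of the changes across the 146 genes was 0.898, a description across genes that come from the same 16 libraries and are not independent. Of the 32 genes called without budesonide only, 3 had a difference between the changes that was itself called. Of the 10 called with budesonide only 0 had by limma, and 5 had an unadjusted p under 0.05 for the difference. Both sets were picked on the same changes whose difference was tested, which favours a difference. No share of all tested genes at that unadjusted p stands beside the count, so no conclusion is drawn from it.

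The difference was called for 13 genes, 2 of them higher (0.015%) and 11 lower (0.0825%) with budesonide. It is a difference of log2 changes, so it compares ratios and not rises in TPM. Where the level was higher in budesonide than in NS cells, a smaller ratio need not be a smaller rise in TPM. ZFP36 had the largest, −2.46 ± 0.31 (adjusted p = 2.21e-07). Its level with IL-1β stood at 235 ± 34.7 TPM in cotreated and 273 ± 30.2 TPM in IL-1β cells, whereas it was 57.9 ± 13.7 TPM in budesonide and 12.2 ± 4.42 TPM in NS cells. NFKBIA followed the same order of levels, at 908 ± 76.4 TPM in cotreated and 949 ± 46.6 TPM in IL-1β cells, beside 169 ± 29.8 TPM in budesonide and 41.4 ± 6.08 TPM in NS cells, and its difference was −2.08 ± 0.15 (adjusted p = 2.47e-16). In these genes the smaller change with budesonide went with a higher level in budesonide cells than in NS cells. DUSP1 differed by −1.40 ± 0.17 (adjusted p = 1.76e-07). Its mean was highest in cotreated cells, at 390.1 ± 70.1 TPM in cotreated and 222 ± 36.4 TPM in IL-1β cells, beside 148 ± 13.7 TPM in budesonide and 32.0 ± 6.01 TPM in NS cells. KLF6 had levels of 175 ± 43.4 TPM in cotreated and 111 ± 17.2 TPM in IL-1β cells, beside 91.3 ± 4.57 TPM in budesonide and 25.4 ± 3.95 TPM in NS cells, and differed by −1.21 ± 0.28 (adjusted p = 0.0454).

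Another pattern was a lower level with IL-1β when budesonide was present. FOSB stood at 23.2, 17.0, 19.1 and 16.6 TPM in cotreated libraries, against 47.4, 46.8, 47.6 and 41.4 TPM in IL-1β libraries, with no overlap, while both controls were low. Its difference was −1.63 ± 0.32 (adjusted p = 0.00463). EGR3 (−1.21), the cytokine genes IL23A (−1.15) and IL1A (−1.14), the ubiquitin ligase gene NEURL3 (−1.07) and the immunoglobulin family gene CD83 (−1.002) had the same order, all with means of 0.472 to 4.78 TPM in cotreated cells and 1.78 to 9.94 TPM in IL-1β cells. SPRY1 differed by −1.02. TNF differed by −0.99 ± 0.17 (adjusted p = 0.000505), just under 2-fold.

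SERPINA3 and TCHH changed more with budesonide than without it. SERPINA3 stood at 135, 98.7, 125 and 87.5 TPM in cotreated libraries, against 37.1, 32.5, 29.9 and 23.5 TPM in IL-1β libraries. The controls stood at 3.46 ± 0.982 TPM in budesonide and 3.12 ± 0.766 TPM in NS cells, and the difference was 1.73 ± 0.31 (adjusted p = 0.000925). TCHH, which encodes the hair follicle protein trichohyalin, stood at 2.42 ± 0.386 TPM in cotreated and 0.877 ± 0.168 TPM in IL-1β cells, with a difference of 1.03 ± 0.13 (adjusted p = 2.21e-07). NFKBIA, DUSP1 and ZFP36 were the 3 genes whose difference was called under every alternative tried. With only the 16 libraries at 1 h in the fit, 5 of the 13 genes kept their call (ZFP36, NFKBIA, DUSP1, IL1A and TCHH), and EGR3 was among the 8 that lost it (adjusted p = 0.11). With a pseudocount of 1 TPM, 7 genes lost it, EGR3 (−0.94) and TCHH (0.83) among them, and with a pseudocount of 0.1 TPM 6 genes did. With the replicate number as a block in the 16 libraries at 1 h the adjusted p was 0.0891 for SERPINA3, 0.327 for FOSB, 0.125 for KLF6, 0.15 for IL23A, 0.277 for CD83, 0.318 for NEURL3 and 0.0614 for SPRY1. In fits over the 78 libraries that left out 1 library of the 16 in turn, FOSB lost its call without budesonide library 1 (adjusted p = 0.0504) and IL1A without cotreated library 2 (0.107) or IL-1β library 1 (0.0623). KLF6 lost its call in 12 of these fits (adjusted p up to 0.28), IL23A in 10 (up to 0.151), CD83 in 8 and SPRY1 in 6, and NEURL3 in 4. TCHH went under 2-fold without cotreated library 1 or IL-1β library 4 (0.95 each).

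**Figure D3:**
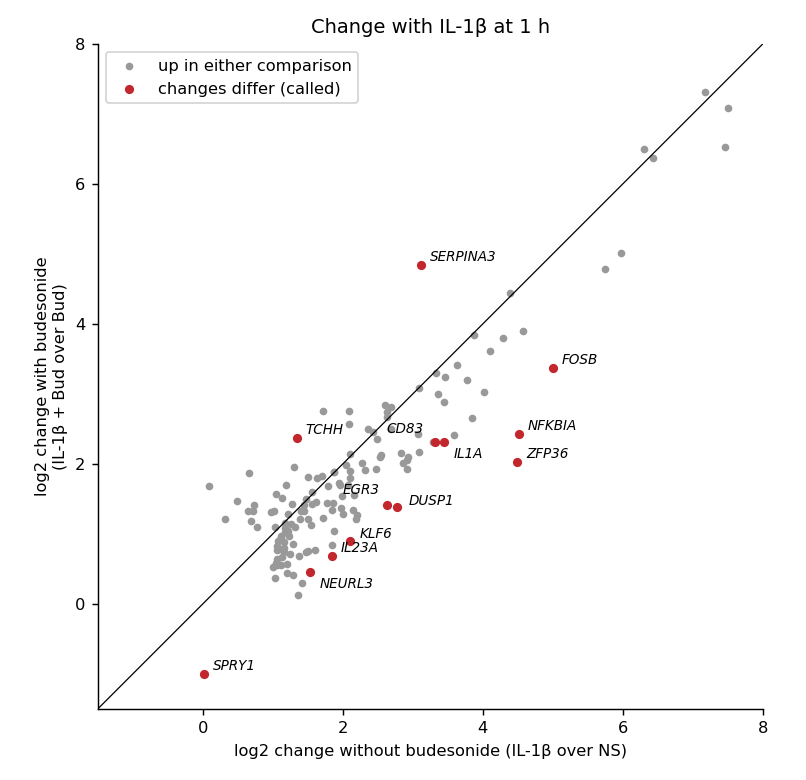
Log2 change with IL-1β at 1 h in the presence of budesonide (vertical axis) against the change in its absence (horizontal axis), for the 146 genes that rose in either comparison (grey) and the 13 genes whose changes differed (red, named), with the line of equal change. The red genes other than SERPINA3 and TCHH lie below the line, and ZFP36 and NFKBIA lie furthest below it.

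**Figure D4:**
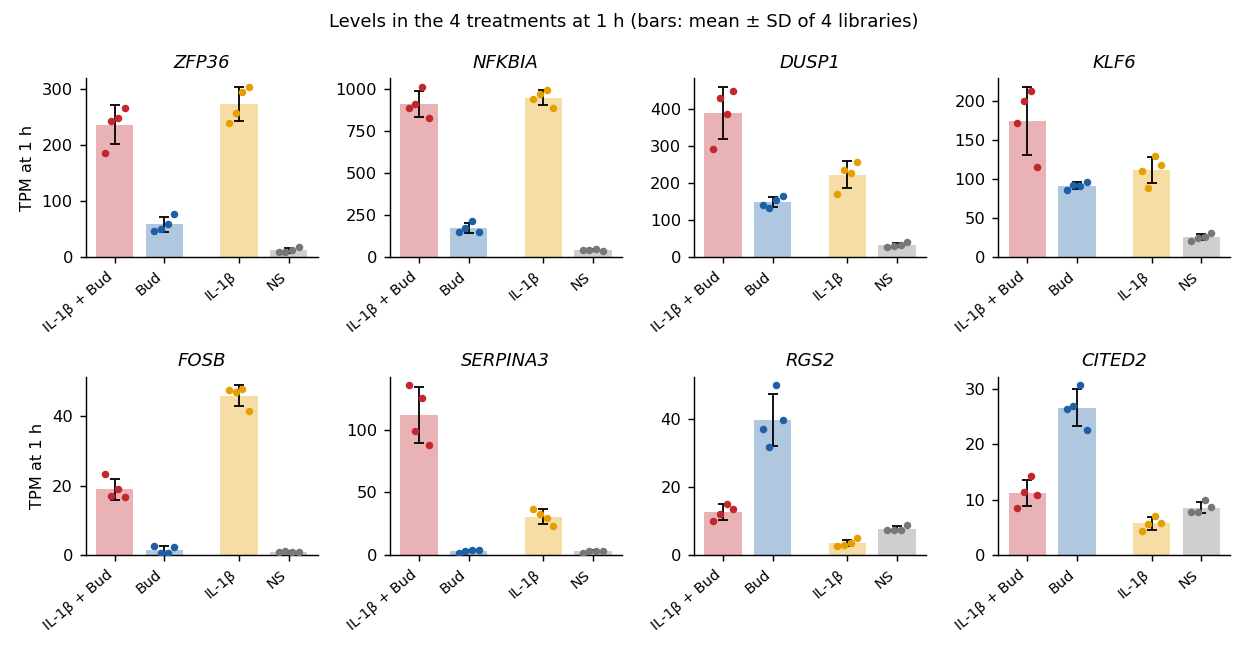
TPM at 1 h of 8 genes in IL-1β plus budesonide, budesonide, IL-1β and NS cells, with bars for the mean, whiskers for the SD of 4 libraries and points for the libraries. ZFP36 and NFKBIA reach similar levels in both IL-1β groups but are higher in budesonide than in NS cells, FOSB is lower and SERPINA3 higher in cotreated than in IL-1β cells, and RGS2 and CITED2 are highest in budesonide cells.

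The same comparison was made at 2, 6, 12 and 24 h, with other libraries. Of the 114 genes that rose at 1 h, 92 rose at 2 h, where 2.56% of all tested genes did. The counts were 44 at 6 h (3.01%), 41 at 12 h (1.58%) and 43 at 24 h (1.67%). At all 5 times 37 of the genes rose, 45 rose at 1 and 2 h and not later, and 21 rose at 1 h and at no later time. The median change of the 114 genes at these later times was 2.22, 0.72, 0.52 and 0.55. The genes were chosen on their 1 h values, so these medians are not set against that at 1 h.

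Gene groups followed different courses, judged on the listed genes whether or not they rose at 1 h. The change at 6 h was lower than at 1 h for 9 of 17 EGR, NR4A and IER genes and 6 of 12 AP-1 and ATF genes, where 2.15% of all tested genes were lower. EGR1 changed by 5.01 at 1 h, 1.07 at 2 h and −0.49 at 6 h. JUN changed by 3.21, 1.36 and −0.30 at these times, and IER2 by 2.84, 0.40 and 0.27. None of the 3 was called at 6 h, and the differences of −5.50 ± 0.28, −3.50 ± 0.23 and −2.57 ± 0.20 between 6 h and 1 h were called (adjusted p of 5.27e-25, 2.57e-19 and 2.08e-16). PPP1R15A was at 3.84, 1.09 and 0.06. CXCL1 and CXCL8 were called up at all 5 times. CXCL1 changed by 6.50, 8.54, 6.58, 6.48 and 6.05 at the 5 times, and CXCL8 by 7.09, 8.48, 5.98, 6.19 and 6.40. The lower change of CXCL8 at 6 h (−1.10 ± 0.31, adjusted p = 0.00834) was under 2-fold without budesonide library 2 at 1 h (−0.94) or budesonide library 4 at 6 h (−0.91).

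In the acute phase and interferon lists many genes changed more at 6 h than at 1 h. The change at 6 h was higher than at 1 h for 11 of 14 acute phase and prostanoid genes and 15 of 29 interferon-stimulated genes, where 2.72% of all tested genes were higher. SAA1, serum amyloid A, changed by 1.68, 4.14, 6.94 and 5.62 at 1, 2, 6 and 24 h, and the difference between 6 h and 1 h was 5.26 ± 0.42 (adjusted p = 4.43e-16). SERPINA3 changed by 4.84, 6.53, 6.33 and 3.69 at these times. BIRC3 varied less over these times, with 1.92, 2.65, 2.17 and 1.83. RGS2 was lower at 1 h (−1.60) and 2 h (−1.84) and at −0.12 at 6 h, and CITED2 was at −1.21, −1.64, −0.65, −1.03 and −0.88 over the 5 times.

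**Figure D5:**
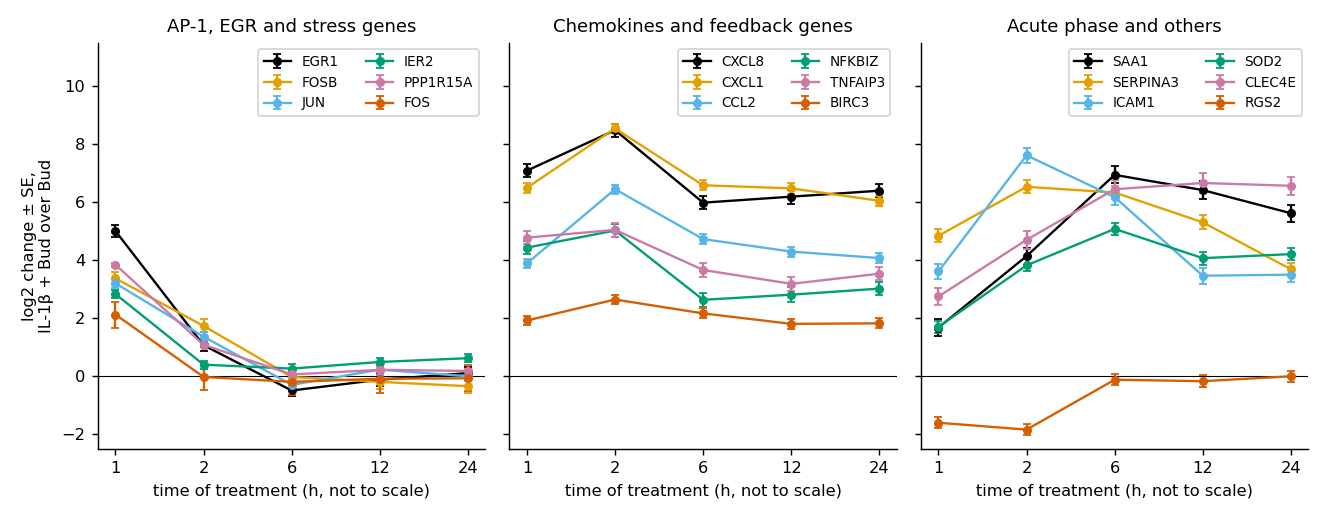
Log2 change for IL-1β plus budesonide over budesonide at 1, 2, 6, 12 and 24 h (horizontal axis, not to scale) with the limma standard error, for 18 named genes in 3 panels. The AP-1, EGR and stress genes are highest at 1 h and near 0 at 6 h, CXCL8, CXCL1 and CCL2 stay above 3 at every time, and SAA1, CLEC4E and SOD2 are higher at 6 h than at 1 h.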

How the data were processed

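Poly(A) RNA from A549 cells was sequenced from stranded libraries, in 4 independent experiments per the labels. The deposited values are a signal, TPM per gene, which the authors estimated with kallisto on GRCh38 (hg38) and normalized with sleuth. Versions, the annotation and the strand setting of the quantification are not given in the sources used here. Library sums differ, so the values are not plain TPM. A second deposited table holds the authors' own comparisons (log2 fold changes, FDR, direction and peak time) and was not used. Of 79 libraries in the table, 1 had no label and was left out.

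Values were transformed to log2(TPM + 0.5) and genes with at least 1 TPM in at least 3 of 78 libraries were kept. Group means over 20 groups were fitted with limma 3.58.1 (R 4.3.3) with a trend on mean level, 58 residual degrees of freedom, two-sided tests and Benjamini-Hochberg adjustment over all 13327 genes. The differences between changes were contrasts of the same fit. The code was tested on simulated data. Deviations from the group mean correlated between same-numbered libraries of the 2 groups (0.205, 0.143, 0.215 and 0.316). Between libraries of different numbers the correlations were −0.214 to 0.142, the highest for cotreated library 2 with budesonide library 1. The numbers were taken to pair the samples. The main fit leaves this pairing out, and the block was run as an alternative. Libraries are not tied to experiments in the labels, so p-values reflect the spread between the libraries in the fit, which are all 78 unless stated.

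Named genes were BIRC3 and BIRC2, the 16 called genes with the highest change, all called lower genes, the 5 with the largest rise in TPM, up to 6 called and 3 other members of each gene list with the largest changes, and the 8 highest and 8 lowest called genes of the difference between changes. Further list members and a few other genes were named for context after their values were seen. The members and lists were chosen with earlier results of these data known. Lists are described by counts and medians without a set test. Gene positions, gene lengths and promoters came from RefSeq (GRCh38.p14), exons and 3′ UTRs from GENCODE. Alternatives covered the pseudocount, the filter, scaling, the libraries in the fit, the block and leaving out each library.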

Additional observations from a re-analysis of the deposited data

Results flagged for a closer look

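A library far from the other 3 of its group was looked for in 72 groups of 4 values, and 5 were found, where chance flags about 1 in 20. Among the named genes, budesonide library 2 stood above the others for ICAM1 (0.760 TPM), budesonide library 3 for SPRY1 (5.46 TPM) and budesonide library 1 for BIRC3 (28.4 TPM). Cotreated library 4 had a summed TPM of 902859 and a distance from its group of 0.489, both above the other 3 cotreated libraries. Without that library 122 genes rose, against 114 with it. EDN2 lost its call without it (1.29, limma adjusted p = 0.0691). So did the differences with and without budesonide of CD83 (−0.93), IL23A (adjusted p = 0.101) and KLF6 (adjusted p = 0.28).

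The change with IL-1β at 1 h differed with and without budesonide for 13 genes, by a test of the difference itself over 4 groups of 4 libraries. The test was on log2 changes, so it compares ratios and not rises in TPM. Lower with budesonide were ZFP36 (−2.46), NFKBIA (−2.08), FOSB (−1.63), DUSP1 (−1.40), KLF6 (−1.21), EGR3 (−1.21), IL23A (−1.15), IL1A (−1.14), NEURL3 (−1.07), SPRY1 (−1.02) and CD83 (−1.002). Higher with budesonide were TCHH (1.03) and SERPINA3 (1.73).

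The change with IL-1β in the presence of budesonide differed between 6 h and 1 h, by the same kind of test, for several of the genes named above. It was lower at 6 h for EGR1 (−5.50), JUN (−3.50), FOSB (−3.40) and IER2 (−2.57), and higher at 6 h for SAA1 (5.26) and SERPINA3 (1.49).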

How the results depend on the processing

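In IL-1β plus budesonide against budesonide, 83 to 133 genes rose and 2 to 4 fell over all alternatives tried. Of 118 genes (the called genes and BIRC2), 99 stayed on the same side of the call rule under every alternative in which they were tested. Genes with a mean under 5 TPM were left out of 1 alternative. No called change reversed its sign. With 1 library left out, the counts were 109 to 122 genes up and 2 to 4 down. The count for the difference between changes with and without budesonide moved more. It was 2 up and 11 down, against 1 up and 6 down with a pseudocount of 1 TPM, 5 down with a pseudocount of 0.1 TPM, 1 up and 3 down among genes with a mean of at least 5 TPM, where fewer genes were tested, and 1 up and 6 down with only the 16 libraries at 1 h in the fit. With the replicate number as a block over the 78 libraries it was 4 up and 13 down. That block gave 116 up and 4 down in the main comparison and changed the call of no named gene. With 1 library left out the difference was called for 1 to 2 genes up and 6 to 12 down. The change at 6 h against that at 1 h was called for 363 genes up and 286 down, 207 up and 131 down among genes with a mean of at least 5 TPM, and 334 to 378 up and 263 to 295 down with 1 library left out. Apart from the filter, the cause of these shifts was not tested. The sequencing depth of each single library is unknown, and the pseudocount sets the change of genes near 0.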

Other observations

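Of the 114 genes that rose, 41 were in none of the gene lists. Those named here were picked after their values were seen. Several encode GTPases of the RAS superfamily. RRAD and GEM, of the RGK family that inhibits voltage-gated calcium channels, rose by 2.76 and 2.14, with means of 5.31 ± 2.08 and 12.9 ± 3.38 TPM in cotreated cells and 0.337 ± 0.169 and 2.48 ± 0.488 TPM in budesonide cells (SD, n = 4 each). RHOB rose by 1.28 and RASD1 by 1.21. RRAD was nearly absent from budesonide cells, whereas RHOB was at 69.4 ± 12.8 TPM there.

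Other genes outside the lists encode regulators of transcription and signaling. KDM6B, a histone H3 lysine demethylase, rose by 2.35, BHLHE40 by 1.60, SOX9 by 1.41 and STAT5A by 1.34. EFNA1, an ephrin ligand among the 16 highest genes, stood at 185, 147, 165 and 154 TPM in cotreated libraries, against 13.8, 14.8, 16.7 and 19.7 TPM in budesonide libraries. Among the called genes TNFAIP2 had the largest rise in mean TPM after NFKBIA, CXCL2, CXCL1 and CXCL8. It stood at 729.6, 529, 571 and 375 TPM in cotreated libraries, against 174, 191, 146 and 140.1 TPM in budesonide libraries, and cotreated library 4 was the lowest. Among the listed stress and growth arrest genes TXNIP, which encodes a thioredoxin inhibitor, had the lowest change at −1.28 but did not pass the test (adjusted p = 0.409). It stood at 1.19, 0.719, 1.68 and 1.38 TPM in cotreated libraries, against 2.85, 3.09, 2.88 and 6.63 TPM in budesonide libraries, and budesonide library 4 was the highest.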
